A study of Mus musculus with 6 samples.

Results

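The genes of cholesterol synthesis, uptake and efflux were read in RNA-seq of full-thickness dorsal skin. They are 29 of the 21959 genes in the table and were found in it by their symbols. Of them, 18 encode enzymes of the synthesis pathway, 4 sense sterols and control the pathway, and 7 move cholesterol within or out of the cell or encode the receptors that control its export. Below, these 7 are called the uptake and efflux genes, although none is a receptor for uptake at the cell surface. The mice were male C57BL/6 animals of 7 weeks, with no genetic change named, whose backs were shaved while the hair follicles rested. In each group 3 mice were treated on the skin once a day for 7 days, either with vehicle (dipropylene glycol in water) or with 3% rebamipide, a drug otherwise used to protect the stomach lining. Each library was made from the full-thickness skin of 1 mouse, a mix of cell types, so a lower level from fewer cells of a type and a lower level from less RNA per cell cannot be told apart.

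Cells build cholesterol from acetyl-CoA through mevalonate, isoprenoid units, squalene and lanosterol. When sterols are plentiful, Insig proteins hold Scap and the transcription factor encoded by Srebf2 in the endoplasmic reticulum, and the synthesis genes are then transcribed less. Liver X receptors (LXR, encoded by Nr1h2 and Nr1h3) are activated by oxidized sterols and switch on export pumps such as Abca1 and Abcg1. In skin, keratinocytes need cholesterol for the permeability barrier, sebaceous glands make sterols for sebum, and adipocytes store cholesterol in their lipid droplets.

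Each vehicle library summed to between 38676018 and 39915276 counts, and each library from rebamipide skin to between 32709801 and 34706852 counts. The libraries of the groups differed in make-up, since mitochondrially encoded genes took 2.59 to 5.36% of counts in vehicle and 13.3 to 22.0% in rebamipide. Keratinocyte RNA was almost gone in the library rebamipide 3, in which Krt14, a defining marker of basal keratinocytes, had 0 counts (a count of 0 allows up to 3) and Krt5 had 4 counts, against at least 26099 and 50427 counts in vehicle. Counts of calls over the members and gene lists are therefore also given without this library.

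The promoters of the synthesis genes were searched for letters that the machinery of the pathway is known to read, and 5 of them are printed, with and without such letters. RefSeq windows from 250 bases before to 50 bases after the start of transcription (300 bases, GRCm38.p6, another build than the counts) were found for 23 of the 29 genes. Each window was searched on both strands for the NF-Y box (CCAAT, or ATTGG on the other strand), for a sterol response element (TCACNCCAC) and for the LXR repeat DR4 (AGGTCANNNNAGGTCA). An NF-Y box stood in 14 of 15 synthesis genes with a window, Acat2 being the exception, and in 4 of 8 other members (Insig1, Insig2, Npc2 and Srebf2), against 41.1% of 27025 genes with a window. By window, it stood in 18 of 30 of the members (60.0%) and in 37.4% of all 32851. The sterol response element in this exact spelling stood in Hmgcs1 only among the members and in 1.24% of all windows, and the LXR repeat stood in none of the members and in 0.0152% of all windows. No NF-Y box overlapped the sterol response element. The windows of 5 enzymes are shown 5′ to 3′ on the strand of the gene, in lower case with matched letters in capitals. Hmgcs1 and Acat2 belong to the first steps, and Idi1, Cyp51 and Hsd17b7 are enzymes that fell. The window of Hmgcs1 lies at chr13:119690101-119690400 (plus strand), Acat2 lies at chr17:12960676-12960975 (minus strand), Idi1 lies at chr13:8885356-8885655 (plus strand), Cyp51 lies at chr5:4104648-4104947 (minus strand) and Hsd17b7 at chr1:169969156-169969455 (minus strand).
Hmgcs1: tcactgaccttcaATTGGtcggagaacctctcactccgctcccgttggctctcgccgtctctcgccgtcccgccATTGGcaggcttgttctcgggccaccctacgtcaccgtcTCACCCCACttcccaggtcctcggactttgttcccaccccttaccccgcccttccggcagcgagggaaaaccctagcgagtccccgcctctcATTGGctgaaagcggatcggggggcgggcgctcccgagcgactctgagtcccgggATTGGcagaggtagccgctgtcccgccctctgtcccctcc
Acat2: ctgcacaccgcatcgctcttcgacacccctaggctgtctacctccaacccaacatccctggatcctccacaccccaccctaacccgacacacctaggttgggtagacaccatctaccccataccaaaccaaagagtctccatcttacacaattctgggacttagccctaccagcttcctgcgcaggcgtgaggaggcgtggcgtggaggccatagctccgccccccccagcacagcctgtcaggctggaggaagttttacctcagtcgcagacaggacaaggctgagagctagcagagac
Idi1: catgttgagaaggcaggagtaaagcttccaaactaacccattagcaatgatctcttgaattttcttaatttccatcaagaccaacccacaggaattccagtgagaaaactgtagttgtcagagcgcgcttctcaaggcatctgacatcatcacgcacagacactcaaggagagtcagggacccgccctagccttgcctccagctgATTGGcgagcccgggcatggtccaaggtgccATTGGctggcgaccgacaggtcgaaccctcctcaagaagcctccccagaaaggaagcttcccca
Cyp51: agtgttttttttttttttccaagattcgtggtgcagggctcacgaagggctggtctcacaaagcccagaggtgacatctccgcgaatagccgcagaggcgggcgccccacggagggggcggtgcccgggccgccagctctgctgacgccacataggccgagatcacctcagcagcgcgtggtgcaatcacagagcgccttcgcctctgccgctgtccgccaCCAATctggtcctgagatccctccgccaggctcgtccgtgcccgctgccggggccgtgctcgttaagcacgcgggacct
Hsd17b7: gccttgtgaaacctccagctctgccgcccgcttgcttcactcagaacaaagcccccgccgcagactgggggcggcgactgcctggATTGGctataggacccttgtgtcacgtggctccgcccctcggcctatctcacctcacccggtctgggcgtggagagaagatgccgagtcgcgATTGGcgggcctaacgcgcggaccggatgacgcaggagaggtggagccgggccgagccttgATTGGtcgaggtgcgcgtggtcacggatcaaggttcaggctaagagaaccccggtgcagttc
Hmgcs1 has 4 NF-Y boxes and the element, Hsd17b7 has 3 boxes, Idi1 has 2, Cyp51 has 1 and Acat2 has none. A match is a run of letters and not a measured binding site.

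Of the 29 genes, 8 were lower and 3 were higher after rebamipide in edgeR's quasi-likelihood test at an adjusted p under 0.05, and 18 did not pass. The 8 lower genes were Sqle, Idi1, Stard4, Cyp51, Mvd, Hsd17b7, Lss and Dhcr7, of which 7 encode synthesis enzymes, and the 3 higher genes were Nr1h3, Acat2 and Npc2. Over all 14875 genes tested, 6.51% were lower and 14.1% were higher. All 3 rebamipide libraries lay below all 3 vehicle libraries for 13 of the 29 members, against 24% of all genes, and above them for 6, against 24.5% of all genes. For the other 10 members the groups overlapped. Levels below are TMM-normalized CPM, counts scaled to a common library size. The median log2 fold change (rebamipide minus vehicle) was -0.87 over the synthesis enzymes and -0.17 over all genes tested. Over the uptake and efflux genes it was 0.32, and -0.33 when libraries were scaled by total counts alone. That scaling moved the median of all genes by -0.60, called 17 members lower and 2 higher (25.2% and 8.46% of all genes), and turned the sign of 8 members, of which 0 had been called (Hmgcs1, Pmvk, Fdft1, Nsdhl, Scap, Npc1, Abca1 and Nr1h2).

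The count of lower members rested on few libraries. Without rebamipide 3 it was 4 (Mvd, Idi1, Sqle and Stard4; 2.49% of all genes were then lower), with 2 higher (Acat2 and Nr1h3; 6.6% of all genes). It was 2 (Idi1 and Stard4) without vehicle 1 (2.52% of all genes) and again without vehicle 3 (5.51%), 11 without rebamipide 1 (12.8%), and 0 without vehicle 2 or without rebamipide 2, where edgeR called 0 and 1 of all genes. With these libraries left out, 17 and 15 members had an unadjusted p under 0.05 (27.5% and 26.5% of all genes), and DESeq2 called 12 and 10 members lower (13.3% and 9.27% of all genes).

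**Figure D1:**
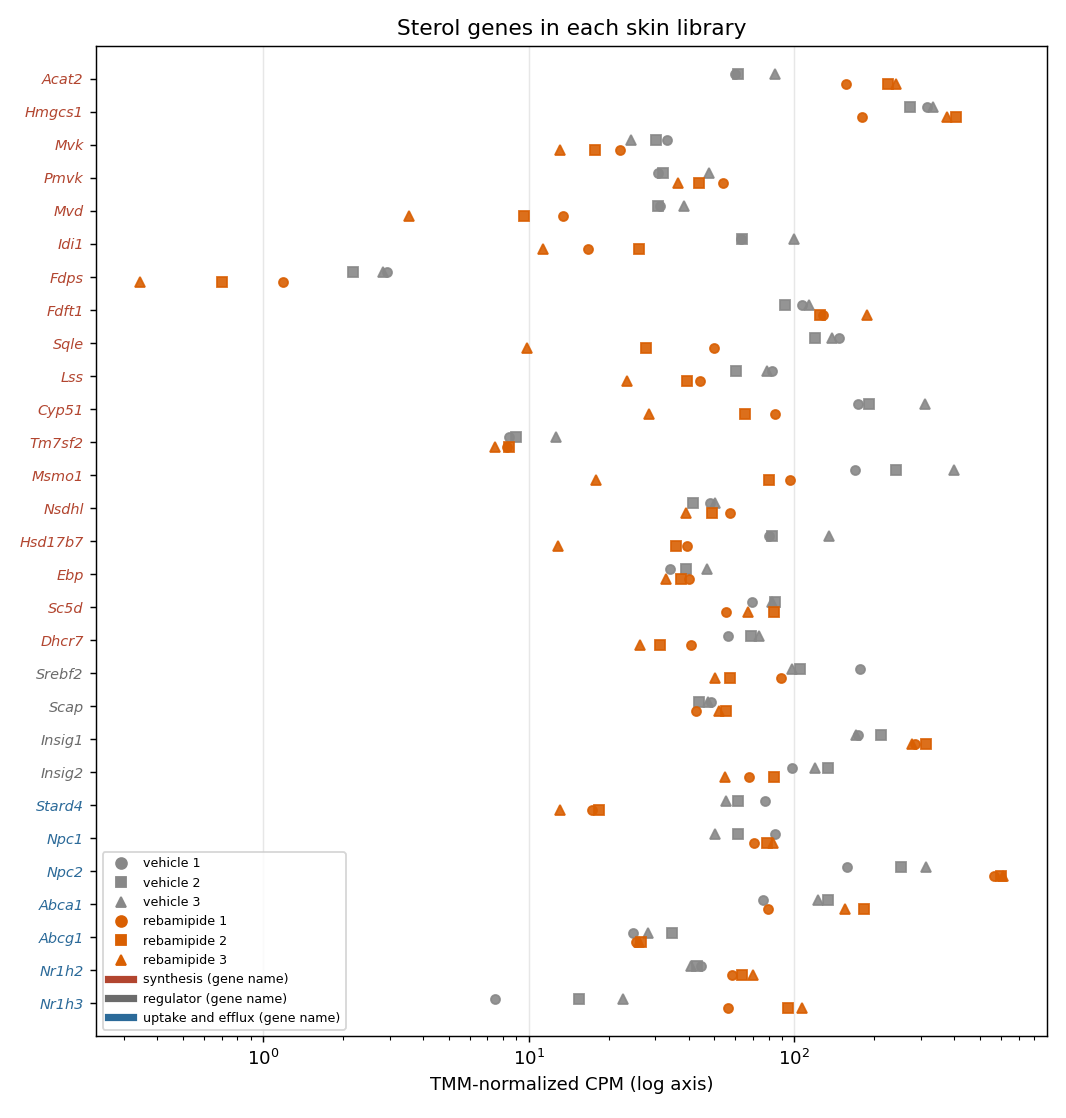
Counts scaled to a common library size (TMM-normalized CPM, log axis) of the 29 genes in each of the 6 libraries, vehicle in grey and rebamipide in orange, with a marker shape for each library. The rebamipide points of Sqle, Idi1, Cyp51 and Stard4 lie left of every vehicle point, those of Acat2, Npc2 and Nr1h3 lie right of it, and rebamipide 3 (triangles) is the leftmost orange point for 14 of the 18 synthesis enzymes.

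The pathway opens with enzymes that join acetyl units and make mevalonate. Acat2 (ENSMUSG00000023832, chr17:13161777-13179634, GRCm39), the cytosolic thiolase that makes acetoacetyl-CoA, was the only member of the 18 synthesis enzymes that was called higher. Its level was 59.8, 61.3 and 84.4 CPM in the vehicle libraries and 156.5, 225 and 241 CPM in the rebamipide libraries, with no overlap. The log2 fold change was 1.60 ± 0.26 (SE, n = 3 per group, edgeR adjusted p = 0.0137), or 3.03-fold higher. Its neighbour Acat3 is a near-identical copy, and how the counting split reads between them is not known, so the level of each is uncertain. Acat3 was at 0.223 to 0.877 CPM in vehicle and at 3.06 to 10.6 CPM in rebamipide (log2 fold change 3.81, adjusted p = 0.0212). Hmgcs1, the synthase of the next step, had the highest level per length of all synthesis enzymes in vehicle (FPKM 83.0 on average). Its level was 316, 273 and 334 CPM in vehicle and 179, 405 and 377 CPM in rebamipide. The rebamipide libraries lay on both sides of the vehicle libraries, and the difference was 0.06 with a 95% interval from -0.78 to 0.89 (adjusted p = 0.908).

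The enzymes that turn mevalonate into isoprenoid units did not move as 1 block. Mvk, the first kinase of mevalonate, was at 33.3, 30.3 and 24.4 CPM in vehicle and at 22.1, 17.8 and 13.2 CPM in rebamipide. All its rebamipide libraries were lower, but it did not pass the test (-0.73 ± 0.27, adjusted p = 0.0953). The second kinase, Pmvk, was at 30.8, 32.1 and 47.9 CPM against 54.0, 43.8 and 36.6 CPM, with overlapping groups (0.28 ± 0.26, adjusted p = 0.443). Mvd (ENSMUSG00000006517, chr8:123160340-123170161), the decarboxylase that makes the first isoprenoid, fell. It was at 31.3, 30.7 and 38.4 CPM in vehicle and at 13.5, 9.63 and 3.55 CPM in rebamipide, which is a log2 fold change of -1.91 ± 0.49 (adjusted p = 0.0412).

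Idi1 (ENSMUSG00000058258, chr13:8935537-8942487), the isomerase that follows Mvd, fell 4.18-fold. Its level was 62.8, 63.5 and 99.6 CPM in vehicle and 16.7, 26.0 and 11.3 CPM in rebamipide. The groups were far apart (-2.07 ± 0.37, 95% interval from -2.97 to -1.16, adjusted p = 0.0177). Fdps, which joins isoprenoid units to farnesyl diphosphate, was listed at 2.17 to 2.93 CPM in vehicle and at 0.343 to 1.19 CPM in rebamipide. It did not pass the test in edgeR (-1.82 ± 0.53, adjusted p = 0.0566), and DESeq2 called it lower. Its FPKM was 0.779 in vehicle, the lowest of the synthesis enzymes, and the table holds Gm43738, a gene on the same strand that shares 7512 bases with it and has 0 counts in all 6 libraries, so the level of Fdps is uncertain.

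Squalene is made by Fdft1, oxidized by Sqle and closed to the first sterol, lanosterol, by Lss. These neighbouring steps went apart. Fdft1, the synthase, was at 107, 92.4 and 114 CPM in vehicle and at 128, 125 and 188 CPM in rebamipide. Its groups did not overlap, without passing the test (0.50 ± 0.23, adjusted p = 0.16), and with total counts alone the sign turned. Fdft1 shares 774 bases with Ctsb on the other strand, which rose (1.03, adjusted p = 0.0398), and the strand setting of the counting is not given in the sources used here. Sqle (ENSMUSG00000022351, chr15:59186926-59203041), the epoxidase and a control point of the pathway, was at 147, 119.9 and 139 CPM in vehicle and at 49.99, 27.8 and 9.88 CPM in rebamipide. It had the lowest log2 fold change of the 29 genes (-2.21 ± 0.56, 95% interval from -3.57 to -0.85, adjusted p = 0.0409), or 4.63-fold lower. Lss (ENSMUSG00000033105, chr10:76367422-76392972) was at 82.8, 60.6 and 78.8 CPM against 44.3, 39.5 and 23.4 CPM, which is 2.07-fold lower (-1.05 ± 0.29, adjusted p = 0.0487).

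**Figure D2:**
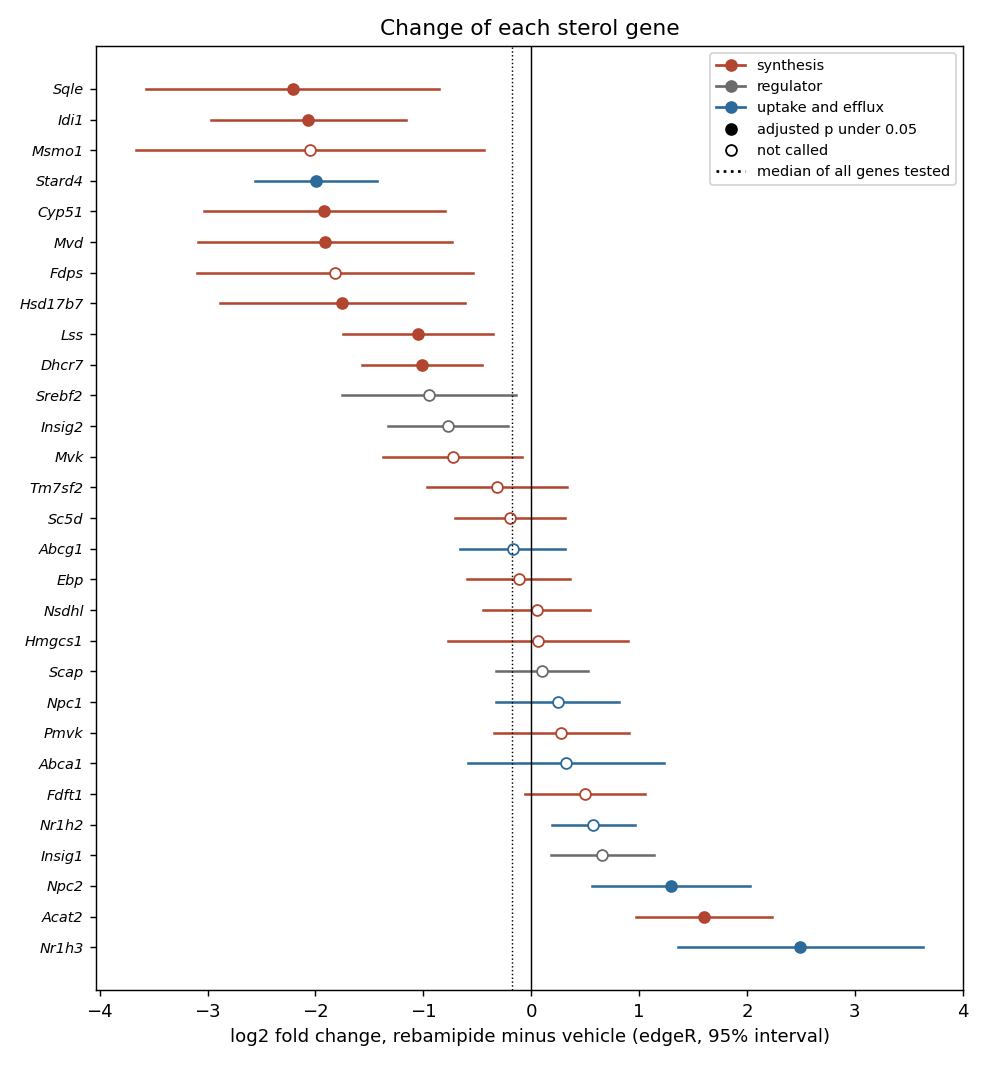
Log2 fold change (rebamipide minus vehicle, edgeR, n = 3 per group) of each of the 29 genes with its 95% interval, coloured by class, filled where the adjusted p was under 0.05, with a dotted line at the median of all genes tested (-0.17). The upper end, from Sqle at -2.21, holds synthesis enzymes and the carrier Stard4 (-2.00), while Acat2 (1.60) stands beside Npc2 (1.30) and Nr1h3 (2.50) at the other end.

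Lanosterol is turned into cholesterol by demethylation, reduction and isomerization, and 3 of the 8 enzymes of this stretch fell, against 6.51% of all genes. This count was also 3 without rebamipide 1 (12.8% of all genes). It was 0 without any other single library, rebamipide 3 included (0 to 5.51% of all genes). Without rebamipide 3, DESeq2 still called Cyp51, Hsd17b7 and Dhcr7, and also Msmo1 (11.9% of all genes lower). With total counts alone the edgeR count was 6, where 25.2% of all genes were lower. Cyp51 (ENSMUSG00000001467, chr5:4131145-4154746), the lanosterol demethylase, was at 173, 191 and 311 CPM in vehicle and at 84.8, 65.1 and 28.5 CPM in rebamipide. That is 3.78-fold lower (-1.92 ± 0.46, adjusted p = 0.0357). It shares 166 bases with Akap9 on the other strand, which did not pass the test (-0.80, adjusted p = 0.0595). Msmo1, the methyl sterol oxidase, had a log2 fold change close to that of Idi1 (-2.05 ± 0.67). It did not pass the test in edgeR (adjusted p = 0.0728), and DESeq2 called it lower. Its libraries were widely spread, at 169, 241 and 399 CPM in vehicle and at 96.55, 80.5 and 17.9 CPM in rebamipide, without overlap.

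Hsd17b7 (ENSMUSG00000026675, chr1:169777104-169796810), the ketosteroid reductase of the same demethylation cycle, was at 80.1, 82.2 and 136 CPM in vehicle and at 39.5, 36.0 and 12.9 CPM in rebamipide. It fell 3.37-fold (-1.75 ± 0.47, adjusted p = 0.0462). Dhcr7 (ENSMUSG00000058454, chr7:143376882-143402147), the final reductase whose substrate is also the precursor of vitamin D, was at 56.1, 68.5 and 73.3 CPM in vehicle and at 40.8, 31.2 and 26.3 CPM in rebamipide. Its fall was smaller and its libraries were tighter (-1.01 ± 0.23, adjusted p = 0.0308).

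The 4 other enzymes of this stretch had overlapping groups and were not called. With total counts alone Tm7sf2 (-0.92, adjusted p = 0.0455) and Sc5d (-0.83, adjusted p = 0.0206) were called lower, and on the FPKM Ebp was as well. Nsdhl, the dehydrogenase that works between Msmo1 and Hsd17b7, was at 41.7 to 50.4 CPM in vehicle and at 39.0 to 57.3 CPM in rebamipide (0.05, 95% interval from -0.45 to 0.55). Ebp, the sterol isomerase, was at 34.0 to 46.9 CPM against 33.0 to 40.0 CPM (-0.12, 95% interval from -0.60 to 0.36). For Sc5d, the desaturase before Dhcr7, the levels were 69.3 to 84.7 CPM against 55.6 to 83.9 CPM (-0.20, 95% interval from -0.71 to 0.32). Tm7sf2, a sterol reductase, was low throughout, at 8.45 to 12.7 CPM against 7.44 to 8.46 CPM (-0.32, 95% interval from -0.97 to 0.34), and shares 532 bases with Vps51 on the same strand. Their adjusted p-values ran from 0.405 to 0.867, and none of their intervals reached the log2 fold change of Dhcr7.

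The make-up of the synthesis enzymes differed between the groups. Their summed FPKM, which scales by total counts, was 457, 444 and 586 in vehicle and 276, 264 and 240.0 in rebamipide. Divided by the TMM factors the sum was 357.5, 359 and 485 in vehicle and 297, 354 and 318 in rebamipide, so the groups then nearly touched. Acat2 took 6.56, 6.70 and 6.85% of that sum in vehicle and 20.7, 25 and 29.8% in rebamipide, moving from rank 4 to rank 1 of the 18 enzymes. Cyp51 moved from rank 2 to rank 8 and Msmo1 from rank 3 to rank 9. Acat2, Hmgcs1 and Fdft1 together held 27.5 to 33.0% of the sum in vehicle and 44.3, 58.6 and 70.0% in rebamipide. Cyp51, Msmo1, Sqle and Idi1 together held 31.1 to 38.9% in vehicle and 16.4, 11.4 and 4.52% in rebamipide. These groupings were chosen after the values were seen and were not tested.

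**Figure D3:**
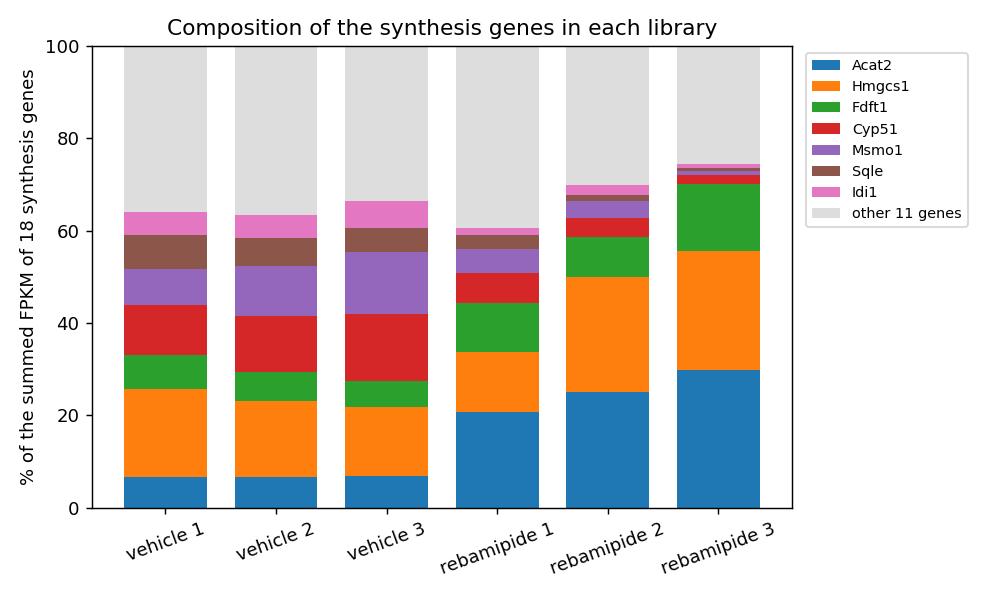
Share of each named enzyme in the summed FPKM of the 18 synthesis enzymes (percent, stacked to 100) in each of the 6 libraries. Acat2 (blue, at the base) widens from 6.56 to 6.85% in vehicle to 20.7 to 29.8% in rebamipide, while the Cyp51, Msmo1, Sqle and Idi1 bands narrow.

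Ratios of 2 enzymes within a library need no scaling between libraries. The pairs were chosen after the values were seen and are a description. Sqle per Fdft1, in reads per base, was 1.02, 0.963 and 0.905 in vehicle and 0.290, 0.164 and 0.039 in rebamipide. Idi1 per Hmgcs1 was 0.260, 0.305 and 0.391 in vehicle and 0.122, 0.0841 and 0.0393 in rebamipide. Both ratios lay lower in all 3 rebamipide libraries, and lowest in rebamipide 3. Acat2 per Hmgcs1 went the other way, from 0.342, 0.406 and 0.457 in vehicle to 1.58, 1.00 and 1.16 in rebamipide.

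Of the 4 sterol-sensing genes edgeR called 0, with 3 at an unadjusted p under 0.05 (39.7% of all genes). DESeq2 called 1 lower and 1 higher (16% and 16.6% of all genes). Srebf2, which encodes the transcription factor that drives the synthesis genes, was at 176, 105 and 98.1 CPM in vehicle and at 88.8, 57.3 and 50.5 CPM in rebamipide. Its groups did not overlap, and it did not pass the test (-0.95 ± 0.33, adjusted p = 0.0881). It was called lower with total counts alone (-1.54, adjusted p = 0.0372) and without rebamipide 1 (-1.23, adjusted p = 0.0453), and not in DESeq2 on all libraries (adjusted p = 0.0547). Scap, the escort of that factor, was at 44.0 to 48.4 CPM against 42.5 to 55.4 CPM (0.10, 95% interval from -0.32 to 0.53, adjusted p = 0.685), and with total counts alone it was called lower (-0.53, adjusted p = 0.0389).

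Insig1 and Insig2, related retention proteins of the endoplasmic reticulum, had differences of opposite sign. Insig1 was at 173, 212 and 170.4 CPM in vehicle and at 285, 314 and 278 CPM in rebamipide, so every rebamipide library was higher (0.66 ± 0.20, adjusted p = 0.06). Insig2 was at 97.7, 134 and 119.9 CPM in vehicle and at 67.8, 83.7 and 54.8 CPM in rebamipide, so every rebamipide library was lower (-0.77 ± 0.23, adjusted p = 0.0601). Neither passed at 0.05 in the main edgeR test, and DESeq2 called both (5 members higher and 11 lower in all, against 16.6% and 16% of all genes). Other edgeR fits called Insig1 higher without rebamipide 1, and Insig2 lower with upper-quartile factors or with at least 10 counts in every library. With total counts alone the difference of Insig1 shrank to 0.04, while Insig2 was called lower (-1.39). The ratio of Insig1 to Insig2 in reads per base, which does not depend on the scaling, was 1.99, 1.77 and 1.60 in vehicle and 4.72, 4.21 and 5.69 in rebamipide.

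Among the genes that move cholesterol, the carriers split. Stard4 (ENSMUSG00000024378), a soluble carrier that shuttles sterol between membranes and is itself transcribed with the synthesis genes, fell 3.99-fold. Its level was 77.8, 61.6 and 55.4 CPM in vehicle and 17.4, 18.4 and 13.1 CPM in rebamipide. It had the smallest adjusted p of the 29 genes (-2.00 ± 0.23, 95% interval from -2.56 to -1.43, adjusted p = 0.00939), and it kept its call without rebamipide 3. It lost its call without vehicle 2 (adjusted p = 0.0747) and without rebamipide 2.

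Cholesterol freed in lysosomes is passed from the soluble protein of Npc2 to the membrane protein of Npc1. Npc2 (ENSMUSG00000021242, chr12:84801336-84819926) was at 158, 252 and 313 CPM in vehicle and at 563, 599 and 612 CPM in rebamipide. It rose 2.46-fold (1.30 ± 0.30, adjusted p = 0.0326), and did not pass without rebamipide 3, without vehicle 2 or without rebamipide 2. With total counts alone its log2 fold change was 0.69 (adjusted p = 0.0991), and it did not pass on the FPKM either. Npc1 was at 84.9, 61.4 and 50.3 CPM against 70.7, 78.7 and 83.4 CPM, with overlapping groups (0.24, 95% interval from -0.32 to 0.81, adjusted p = 0.461). Npc1 shares 967 bases with Rmc1 on the other strand, which rose (1.09, adjusted p = 0.025). The ratio of Npc2 to Npc1 in reads per base was 3.86, 8.53 and 12.9 in vehicle, which is a wide spread, and 16.6, 15.8 and 15.3 in rebamipide.

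Of the LXR receptors, Nr1h3 (ENSMUSG00000002108, chr2:91014406-91033179), the form of liver, fat and macrophages, had the highest log2 fold change of the 29 genes. It was at 7.49, 15.5 and 22.7 CPM in vehicle and at 56.2, 94.7 and 107 CPM in rebamipide. The rise was 5.64-fold (2.50 ± 0.47, 95% interval from 1.36 to 3.64, adjusted p = 0.0194), and the lowest rebamipide library stood above the highest vehicle library. Nr1h2, the form found in most tissues, was at 44.4, 43.1 and 40.8 CPM in vehicle and at 58.4, 63.3 and 69.7 CPM in rebamipide. It lay just outside the threshold in edgeR (0.58 ± 0.16, adjusted p = 0.0501), and DESeq2 called it higher. Its sign turned with total counts alone. Per base, Nr1h3 stood below Nr1h2 in the vehicle libraries, at a ratio of 0.225, 0.479 and 0.740, and above it in the rebamipide libraries, at 1.29, 1.99 and 2.04.

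The export pumps that LXR is known to switch on gave no call in edgeR with TMM scaling, with 0 of 2 at an unadjusted p under 0.05 (39.7% of all genes). DESeq2 also called 0 of them (16% of all genes lower and 16.6% higher). Abca1, which loads cholesterol onto apolipoprotein, was at 76.5, 134 and 123.3 CPM in vehicle and at 79.3, 182.5 and 155.5 CPM in rebamipide (0.32, 95% interval from -0.59 to 1.23, adjusted p = 0.544). Abcg1, which exports to lipoprotein particles, was at 24.7, 34.8 and 28.1 CPM in vehicle and at 25.3, 26.5 and 26.0 CPM in rebamipide (-0.17, 95% interval from -0.66 to 0.32, adjusted p = 0.542), and with total counts alone it was called lower (-0.79, adjusted p = 0.0336). In CPM the groups overlapped for both pumps, and the interval of Abca1 is wide enough to hold a 2-fold rise, while that of Abcg1 is not.

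**Figure D4:**
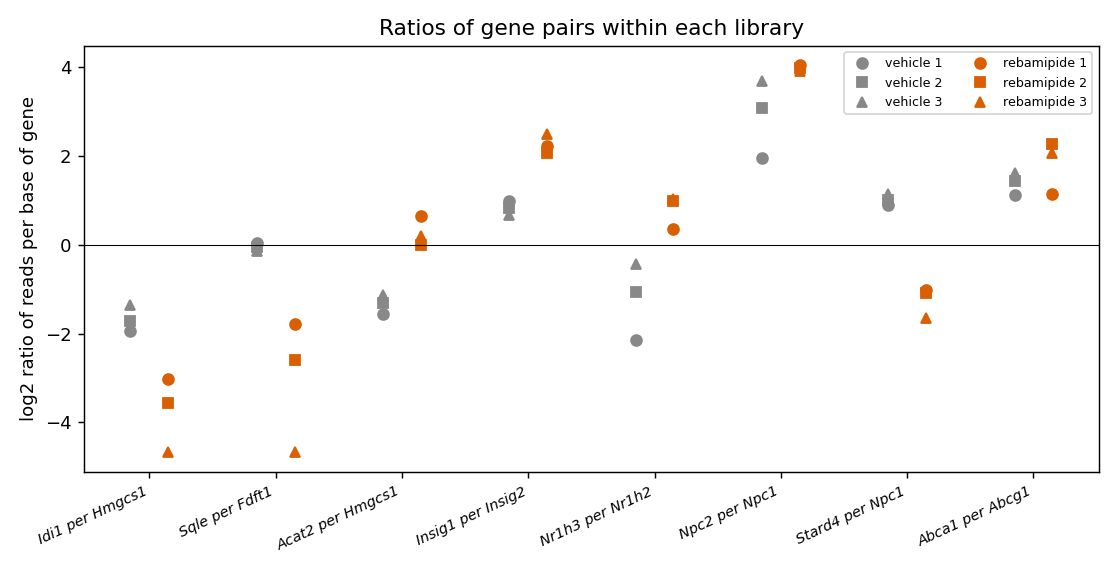
Log2 ratio of reads per base for 8 pairs of genes in each library, vehicle in grey and rebamipide in orange. Idi1 per Hmgcs1, Sqle per Fdft1 and Stard4 per Npc1 are lower in every rebamipide library, Acat2 per Hmgcs1, Insig1 per Insig2, Nr1h3 per Nr1h2 and Npc2 per Npc1 are higher, and Abca1 per Abcg1 overlaps.

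By role, the steps from squalene to lanosterol had a median log2 fold change of -1.05 (3 genes), the mevalonate and isoprenoid steps -0.73 (7 genes), the steps from lanosterol on -0.66 (8 genes), and the sterol sensors -0.33 (4 genes). The mean log2 level of the 18 synthesis enzymes was 5.80, 5.78 and 6.14 in vehicle and 5.32, 5.26 and 4.63 in rebamipide. The mean of the 7 uptake and efflux genes was 5.63, 5.94 and 5.92 in vehicle and 6.02, 6.37 and 6.33 in rebamipide. The first minus the second was 0.17, -0.15 and 0.22 in vehicle and -0.71, -1.12 and -1.70 in rebamipide, a difference within each library from which the scaling cancels, apart from the pseudocount of 0.5 CPM. No test was made over these means, since genes of a pathway are not replicates. Rebamipide 3 held the lowest value of its group for 14 of the 18 synthesis enzymes and for 1 of the 7 uptake and efflux genes.

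**Figure D5:**
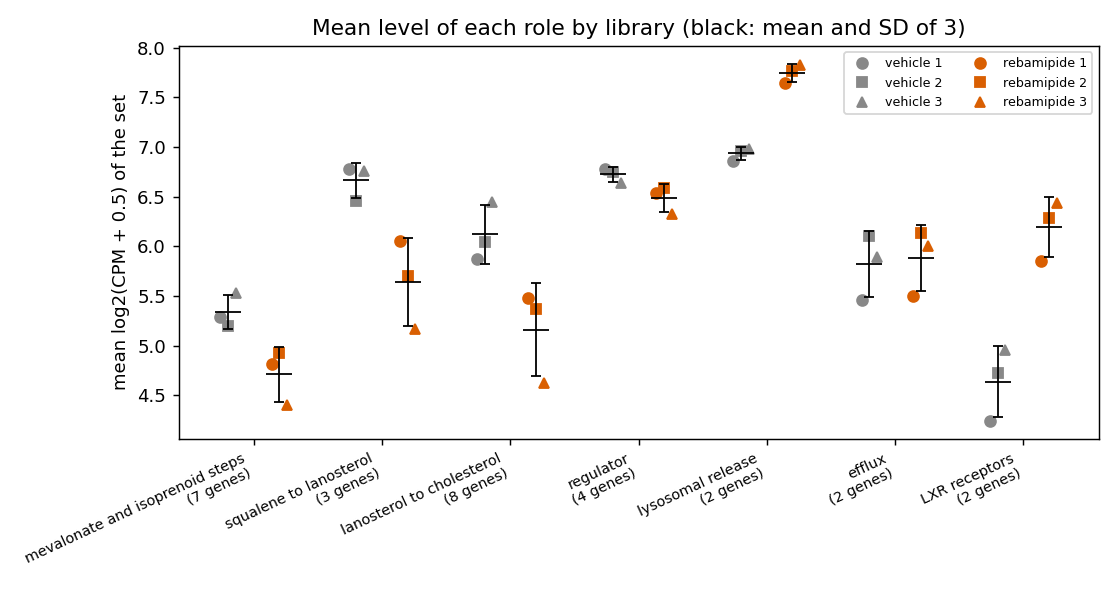
Mean log2(CPM + 0.5) of the genes of each role in each of the 6 libraries, with the mean and SD of the 3 libraries of each group in black. The synthesis stretches lie lower in all 3 rebamipide libraries, the regulators lie at 6.63 to 6.78 against 6.33 to 6.59, the efflux pumps overlap, and the LXR receptors sit at 4.24 to 4.95 in vehicle and 5.85 to 6.44 in rebamipide.

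The table holds 45 further sterol genes, and 40 of them were tested, of which 11 rose and 1 fell (Stard5, -0.76, adjusted p = 0.0362), against 14.1% and 6.51% of all genes, with a median log2 fold change of 0.23. Without rebamipide 3, 7 rose and 2 fell (6.6% and 2.49% of all genes), without vehicle 1 also 7 and 2 (10% and 2.52%), without rebamipide 1 the counts were 12 and 4 (18.3% and 12.8%), and without vehicle 2 or rebamipide 2 they were 0 and 0. With total counts alone 7 rose and 9 fell, and the whole table turned likewise (8.46% higher and 25.2% lower). Acat1, the mitochondrial thiolase of ketone body metabolism and a relative of Acat2, rose from 137 to 159 CPM in vehicle to 600.4 to 1053 CPM in rebamipide (2.55 ± 0.29, adjusted p = 0.00939). Lipa, the lysosomal lipase that frees the cholesterol that Npc2 binds, rose from 28.5, 45.8 and 47.0 CPM to 130.3, 188 and 179.7 CPM (2.04, adjusted p = 0.0103). Srebf1, the relative of Srebf2 that drives fatty acid synthesis and is an LXR target, rose from 69.3, 86.7 and 87.3 CPM to 172, 206 and 203 CPM (1.26, adjusted p = 0.0124).

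Others that rose were Gramd1b, a carrier between plasma membrane and endoplasmic reticulum (2.65, adjusted p = 0.0157), and Tspo of the outer mitochondrial membrane (2.1, adjusted p = 0.0162). The 3 genes of this list with the highest CPM all rose. Cd36, a fatty acid and lipoprotein scavenger receptor of adipocytes and macrophages, went from 279.5, 496 and 790.4 CPM to 1164, 3306 and 3547 CPM (2.36, adjusted p = 0.0403), Scp2, a peroxisomal sterol carrier and thiolase, had a log2 fold change of 1.80 (adjusted p = 0.0337), and Acat1 was the third.

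Markers of several cell types moved with these groups, and their part in the sterol results was not tested. The labels do not explain why the cell make-up of the skin differed between libraries, and a difference in make-up and an effect of rebamipide on the genes cannot be told apart. Summed CPM of 5 basal keratinocyte markers was 2050 to 3520 in vehicle and 15.0 to 978 in rebamipide, and that of 5 suprabasal markers 880 to 5880 against 5.61 to 1500. In edgeR 0 of these 10 genes were called, against 6.51% of all genes lower and 14.1% higher. There 2 basal and 0 suprabasal markers had an unadjusted p under 0.05 (39.7% of all genes). DESeq2 called 2 basal markers lower (16% of all genes), and without rebamipide 3 it called 5 basal and 1 suprabasal marker lower (11.9% of all genes). The 5 sebaceous markers not shared with brown fat summed to 334 to 814 against 10.9 to 205, and with the shared Cidea and Elovl3 to 525 to 1110 against 1840 to 3590. In edgeR 1 of these 7 was lower and 1 higher, against 6.51% and 14.1% of all genes. The mean of the synthesis enzymes was lowest in rebamipide 3, and so were the sums of the epidermal, unshared sebaceous, macrophage, skeletal muscle, fibroblast, hair follicle and cell cycle markers. White adipocyte markers (2 of 5 higher in edgeR, against 14.1% of all genes) summed to 771 to 3000 against 3530 to 4840. Brown adipocyte markers (5 of 6 higher, against the same 14.1%) summed to 196 to 343 against 4650 to 12400, with Ucp1 at 0 counts in every vehicle library and at 81048, 220449 and 150572 counts in the rebamipide libraries. Endothelial markers (2 of 3 higher in edgeR, against 14.1% of all genes) summed to 169 to 379 against 852 to 1240. Macrophage markers summed to 220 to 520 against 106 to 426, with 0 of 5 called in edgeR. Of the 5, 1 had an unadjusted p under 0.05 in edgeR (39.7% of all genes) and 1 was called lower in DESeq2 (16% of all genes). Sums for fibroblasts (8090 to 12400 against 1460 to 10700), skeletal muscle (4100 to 20300 against 215 to 25900), growing hair follicle (11.3 to 1100 against 0 to 58.0) and cell cycle (90.9 to 358 against 1.79 to 48.7) held 0 genes called in edgeR. The numbers of their genes at an unadjusted p under 0.05 in edgeR were 1, 0, 0 and 2 (39.7% of all genes). DESeq2 called 1 fibroblast gene and all 3 cell cycle genes lower (16% of all genes). Without rebamipide 1, edgeR called 3 of 3 hair follicle, 2 of 4 fibroblast, 1 of 5 macrophage and 1 of 5 basal keratinocyte genes lower (12.8% of all genes). Without rebamipide 3, the genes called in edgeR were 1 lower of the basal keratinocyte list, 2 lower and 1 higher of the sebaceous list, 1 higher of the white and 4 higher of the brown adipocyte list, and 2 higher of the endothelial list. Of all genes 2.49% were then lower and 6.6% higher.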

How the data were processed

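Dorsal skin of 6 mice was sequenced from poly-A RNA on a DNBSEQ-T7. Per the submitters' processing notes, fastp 0.22.0, HISAT2 2.1.0 and HTSeq 0.9.1 were used with GRCm39; the strand setting, the treatment of reads shared by copies and the annotation release are not given in the sources used here. The authors deposited raw counts per gene, and FPKM, which were found to be counts over gene length and over the library's own total. Groups were taken from the labels. The counts were fitted in R 4.3.3 with edgeR 4.0.16 (TMM factors, filterByExpr, quasi-likelihood test, Benjamini-Hochberg adjustment) over 14875 of 21959 genes, and a gene was called at an adjusted p under 0.05. The SE is the absolute log2 fold change divided by the square root of F. CPM are TMM-normalized. Levels were compared between genes only per length, as FPKM or as reads per base, except that CPM chose which other sterol genes were named. With 3 mice per group, p-values measure the spread between these mice, and counting limits cover counting error only. Replicates of a group were not 1 library deposited again (chi-square over degrees of freedom of 79.1 to 714).

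The genes and lists were chosen with earlier results of these data known. All 29 members are named; of the other sterol genes those with the 6 smallest p-values and the 3 highest CPM are named, except 1 that is not reported here, and of the marker lists only defining markers. Stard5 and Acat3 were named after their values were seen. DESeq2 1.42.0, limma 3.58.1 (voom, and on log2(FPKM + 1) and log2(FPKM + 0.1)), other scalings, other count filters, a replicate block and leaving out each library were alternatives. RefSeq promoter windows of GRCm38.p6 were used only for their letters and were not joined to the positions of the counts.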

Additional observations from a re-analysis of the deposited data

How the results depend on the processing

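Of the 29 members, 8 were lower and 3 higher. With total counts alone 17 were lower (25.2% of all genes), and with limma on log2(FPKM + 1) or log2(FPKM + 0.1), which also carry that scaling, 18 were lower (32.3% and 32.1% of all genes). DESeq2 called 11 lower and 5 higher (16% and 16.6% of all genes). With each library left out in turn, edgeR called 0 to 11 lower and 0 to 5 higher (0 to 12.8% and 0 to 18.3% of all genes). With the same libraries left out, alternatives added after seeing the data, DESeq2 called 9 to 13 lower and 3 to 5 higher (9.27 to 25.9% and 12.2 to 22.1% of all genes), and limma-voom 0 to 11 lower (4 without vehicle 3 or without rebamipide 3) and 0 to 5 higher (0.0468 to 9.16% and 1.4 to 18.1% of all genes). The replicate numbers did not pair the mice (correlations of same-numbered libraries -0.0392 to -0.0282 and -0.073), 0 vehicle libraries correlated best with their own number, and with a replicate block 2 members were lower (Srebf2 and Stard4) and 3 higher (5.75% and 9.63% of all genes). The synthesis median of -0.87 was -1.46 with total counts alone, -1.49 with log2(FPKM + 0.1) and -1.06 to -0.68 with a library left out (-1.06 to -0.66 with DESeq2 and limma-voom included). The uptake and efflux median of 0.32 was -0.33 with total counts alone, -0.30 with log2(FPKM + 1) and -0.34 with log2(FPKM + 0.1), and with a library left out it was 0.24 (without rebamipide 2) to 0.61 (without rebamipide 1, also with DESeq2), and with limma-voom 0.23 (without rebamipide 3) to 0.64 (without rebamipide 1). Scap, at 0.10, was -0.53 with total counts alone (adjusted p = 0.0389), -0.46 with log2(FPKM + 1) and -0.52 with log2(FPKM + 0.1). Of the 11 called members, 11 kept their sign in all 29 fits, and Acat2, Stard4 and Nr1h3 kept their call in 15 of the 17 alternatives chosen at the outset, Idi1 in 14, Mvd and Sqle in 12, Cyp51, Dhcr7 and Npc2 in 11, and Lss and Hsd17b7 in 10.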
